A study of Homo sapiens with 12 samples.

Results

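The Wnt and beta-catenin pathway genes described here were 10 named genes among the 56537 gene names in a transcript table of HCT116 cells. They were CTNNB1, APC, AXIN1, AXIN2, TCF7, TCF7L2, LEF1, LGR5, ASCL2 and RNF43, taken by name. HCT116 is an established human colorectal cancer line with no transgene or added drug in any group. Cells were kept at 21% oxygen (0 h) or moved to 1% oxygen for 1, 2 or 24 h, and 3 libraries of polyadenylated RNA, submitted as biological replicates, were sequenced at each of the 4 time points, 12 in all. Hypoxia began 24 h after plating. Whether cells of 0 h and of 24 h had spent equally long in culture is not given in the sources used here, so that hypoxia and time since plating cannot be told apart at 24 h.

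Wnt signalling controls how long beta-catenin survives. Without a Wnt signal, the scaffolds AXIN1 and AXIN2 and the tumour suppressor APC hold beta-catenin (CTNNB1) for phosphorylation and destruction. When the pathway is on, beta-catenin enters the nucleus and acts through TCF/LEF proteins, here TCF7, TCF7L2 and LEF1. AXIN2 and RNF43, a ubiquitin ligase that removes the Frizzled receptors, are themselves induced by the pathway and restrain it. LGR5, a receptor for R-spondins, and the transcription factor ASCL2 mark the stem cells of the intestinal crypt. HCT116 is known for an activating mutation in CTNNB1 with APC intact, and these alleles were not examined here.

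Expression was measured as FPKM, the fragments mapped to a transcript relative to its length and to all mapped fragments, summed over the transcripts of a gene name. It is a level per length of transcript and can be set side by side between genes. Read totals were not used here. In loci with a single transcript the smallest values stepped by whole fragments, and 1 fragment on a transcript of 1000 bases was worth 0.0222 to 0.0434 FPKM depending on the library. Across 62162 transcripts above 0.5 FPKM in at least 3 libraries, libraries of the same time correlated with Pearson's r of 0.874 to 0.936 (log2 levels). Those of 0 h correlated with those of 24 h at 0.802 to 0.842. This is a description of transcript levels, since transcripts are not independent replicates. All 7 genes of a hypoxia list (CA9, NDRG1, VEGFA, PGK1, BNIP3, PDK1 and ANKRD37) were differentially expressed upwards at 24 h, with a median log2 fold change of 3.13. None of the 7 passed the test at 1 or 2 h. At 2 h their median log2 fold change was 0.57. VEGFA (0.81, limma adjusted p = 0.018) and ANKRD37 (2.56, limma adjusted p = 0.029) came nearest to passing.

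The 8 epithelial markers summed to between 2006 and 2829 FPKM in every library. The intestinal markers VIL1 and CDX1 were nearly absent, with at most 0.0480 FPKM for VIL1 and a listed 0 for CDX1 in 11 of 12 libraries. The 4 endothelial markers summed to at most 0.117 FPKM, with PECAM1 at 0 in all 12 libraries. Fibroblast markers summed to 1.82–2.16 FPKM at 0 h and 5.77–8.83 at 24 h, almost all of it COL1A1. Leukocyte markers summed to 1.86–2.38 FPKM at 0 h and 6.96–14.3 at 24 h, almost all of it CD68. The defining leukocyte markers PTPRC and CD3E were at 0 in all libraries of 0 h and 24 h, as was the fibroblast marker LUM. Of the low markers, COL3A1 had at most 0.0107 FPKM at 0 h and 0.0127 to 0.0357 at 24 h, and LYZ at most 0.0807 and 0.0741 to 0.199. DCN went the other way, with at most 0.0315 FPKM at 0 h and 0 in all libraries of 24 h. COL1A2 was at 0 in all libraries of both times. The part of these markers in the results was not tested. Of the 8 epithelial markers 6 were tested, with a median log2 fold change of −0.18 at 24 h. CDH1, the epithelial cadherin that binds beta-catenin at junctions, and KRT19 rose (1.76 and 0.99), whereas EPCAM, KRT8, KRT18 and CDX2 did not pass (−0.28, −0.16, −0.20 and −0.39). Transcripts under 300 bases carried 57.0% to 87.6% of all FPKM in a library, which bears on any scaling to a common sum.

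Each time in hypoxia was set against 0 h by limma on log2(FPKM + 0.5), fitted to all 12 libraries, two-sided, with Benjamini-Hochberg adjustment over the 16680 gene names that passed a filter of FPKM above 0.5 in at least 3 libraries. In what follows a gene rose or fell if its adjusted p was under 0.01, and it was differentially expressed if it also changed more than 2-fold. On this scale the changes of low genes are understated. Of the 10 members, 7 passed the filter. LEF1, LGR5 and ASCL2 did not pass it at any time and were not tested.

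The members spanned a wide range of levels. At 0 h the mean FPKM was 133 ± 14.6 for CTNNB1, 49.6 ± 1.87 for TCF7L2, 17.5 ± 2.86 for RNF43 and 10.2 ± 0.906 for TCF7 (SD, n = 3 each). It was 7.85 ± 0.143 for AXIN1, 5.49 ± 0.564 for AXIN2 and 4.96 ± 0.0941 for APC (SD, n = 3 each). In this order each of the first 5 genes lay above the next in all 3 libraries, whereas AXIN2 and APC overlapped. At 24 h the order was CTNNB1, TCF7L2, RNF43, AXIN1, TCF7, APC and AXIN2, and only TCF7 and APC overlapped among neighbours.

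At 24 h, 2 of the 7 members tested rose (TCF7L2 and AXIN1), against 18.3% of all gene names, 2 fell (AXIN2 and TCF7), against 23.2%, and 3 did not pass the test (CTNNB1, APC and RNF43). AXIN2 alone was differentially expressed. Under median-of-ratios scaling, which divides each library by its typical ratio to the others, the single call was TCF7L2 instead (log2 fold change 1.03), and AXIN2 at −0.96 was no longer past 2-fold. Of all gene names tested, 18.3% were differentially expressed at 24 h, 8.76% higher and 9.51% lower, and 41.5% passed the adjusted p alone. In counts this was 1462 higher and 1586 lower, against 1643 and 1379 under median-of-ratios scaling and 215 and 3893 with each library scaled to a common sum (TPM). In bulk RNA, fewer cells that express a gene and less of its RNA per cell cannot be told apart. The median log2 fold change of the 7 members was 0.02, against −0.05 over all genes. At 1 h and at 2 h none of the 7 passed, against 1 gene name in all at 1 h (0.006%) and 3 at 2 h (0.018%), or 4 at 2 h (0.024%) by the adjusted p alone. At an unadjusted p under 0.05 the calls over all gene names were 4.61% at 1 h, 15.3% at 2 h and 60% at 24 h, and among the members they were none at 1 h, AXIN1 and AXIN2 at 2 h, and the same 4 genes as above at 24 h.

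**Figure D1:**
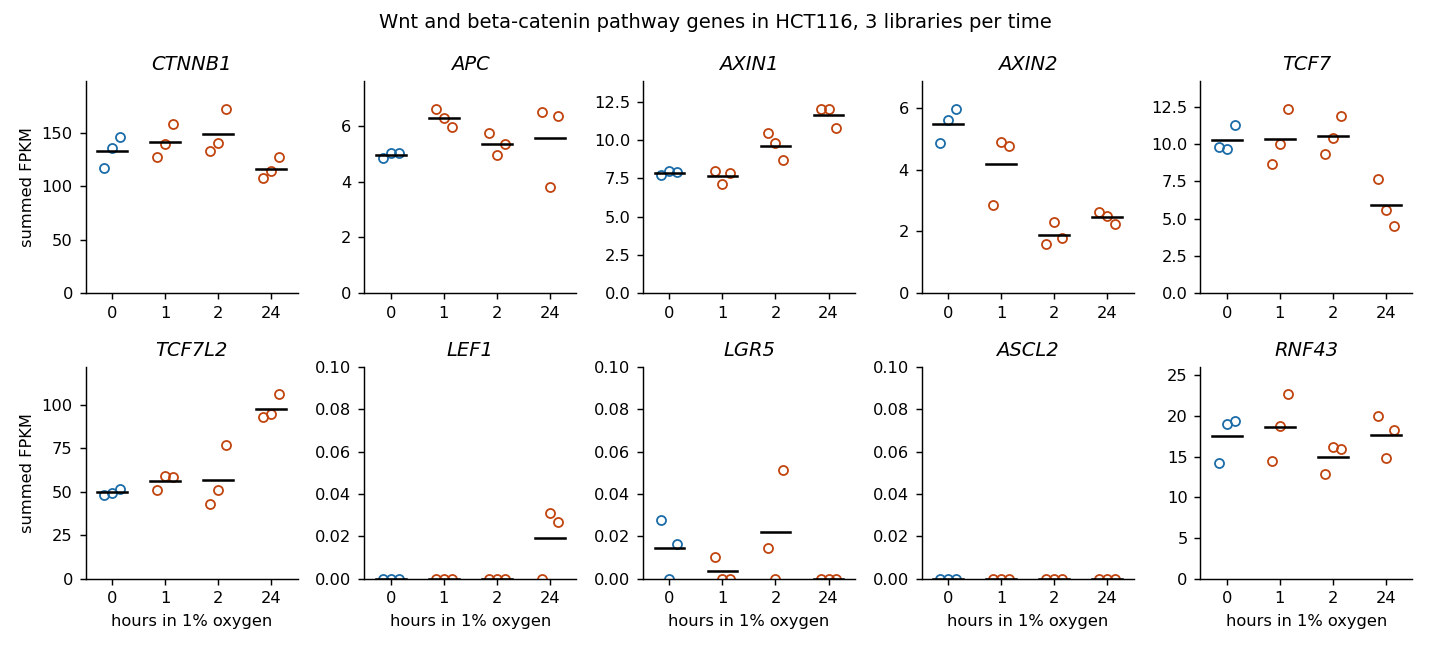
Summed FPKM (vertical axes, each from 0 on its own scale) of the 10 pathway genes against hours in 1% oxygen, with 1 circle per library, 3 per time, blue at 0 h and orange in hypoxia, and a bar at the mean. AXIN2 lay lower in all 3 libraries at 2 h and 24 h than at 0 h, TCF7L2 and AXIN1 lay higher at 24 h, TCF7 lay lower at 24 h, and LEF1, LGR5 and ASCL2 never exceeded 0.0514 FPKM.

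The destruction complex was described by its scaffolds. AXIN1 (ENSG00000103126; GRCh37 chromosome 16, 337440 to 402723, minus strand) had FPKM of 7.70, 7.98 and 7.88 at 0 h, 7.97, 7.11 and 7.86 at 1 h, 10.4, 9.79 and 8.66 at 2 h, and 12, 12.04 and 10.76 at 24 h. The 2 h and the 24 h libraries all lay above those of 0 h, as did 12.2% of all gene names at 2 h and 27.6% at 24 h, and the 1 h libraries overlapped them. The log2 fold change was 0.27 at 2 h (standard error 0.11, limma adjusted p = 0.25) and 0.53 at 24 h (standard error 0.11, limma adjusted p = 0.0011), so AXIN1 rose 1.45-fold at 24 h. The rise rested in part on assembled isoforms, since transcripts with all reference splice sites alone gave 0.29 (limma adjusted p = 0.064).

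AXIN2 (ENSG00000168646; chromosome 17, 63524681 to 63557766, minus strand) went the other way. Its FPKM was 4.87, 5.62 and 5.98 at 0 h, 2.86, 4.89 and 4.76 at 1 h, 1.59, 2.32 and 1.796 at 2 h, and 2.64, 2.49 and 2.25 at 24 h. The 1 h libraries just overlapped those of 0 h, while all 2 h and 24 h libraries lay below them. All 3 libraries of a time lay below those of 0 h in 13.1% of all gene names for 2 h and in 32.8% for 24 h, against 7.33% for 1 h.

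The log2 fold change of AXIN2 was −0.39 at 1 h (standard error 0.19, limma adjusted p = 1). It was −1.33 at 2 h (standard error 0.19), a level 0.399 of that at 0 h, with an unadjusted p of 1.5e-05 in limma that ranked 13 of 16680. The limma adjusted p at 2 h was 0.019, which missed the threshold of 0.01. The locus as a whole gave −0.71 at 2 h (limma adjusted p = 0.22). At 24 h the log2 fold change was −1.01 (standard error 0.19, 95% interval −1.43 to −0.60, limma adjusted p = 0.00073), so AXIN2 fell to 0.495 of its level at 0 h. The ranges at 2 h and at 24 h overlapped, and the difference between these times was not tested.

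The call on AXIN2 at 24 h lay close to the 2-fold threshold. It was −1.0 without 0 h replicate 2, −0.96 without 0 h replicate 3 and −0.96 without 24 h replicate 3, each with an adjusted p still under 0.01 but no longer past 2-fold. The adjusted p itself missed 0.01 with transcripts filtered before summing (−0.91, limma adjusted p = 0.019) and with only transcripts that keep all reference splice sites (−0.81, limma adjusted p = 0.034). All 4 AXIN2 transcripts past the filter shared only some splice sites with the reference ENST00000307078, and their Cufflinks locus also held CEP112 and another gene name. The locus as a whole gave a log2 fold change of 0.22 (limma adjusted p = 0.48). The fall was thus seen in the transcripts assigned to the name AXIN2 and not in the locus as a unit.

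APC (ENSG00000134982; chromosome 5, 112043215 to 112181936, plus strand) is the scaffold most often lost in colorectal tumours. Its FPKM was 4.85, 5.01 and 5.02 at 0 h, 6.62, 6.30 and 5.97 at 1 h, 5.75, 4.97 and 5.34 at 2 h, and 6.51, 3.83 and 6.35 at 24 h. The 1 h libraries all lay above those of 0 h, as did 6.36% of all gene names, and the 2 h and 24 h libraries overlapped them. The log2 fold change was 0.31 at 1 h (95% interval −0.05 to 0.68) and 0.12 at 24 h (95% interval −0.25 to 0.48; limma adjusted p = 0.58). Without 24 h replicate 1 the value at 24 h was −0.00. The APC locus also held SRP19 and 3 other gene names, and as a locus it gave −1.36 (limma adjusted p = 6.6e-05).

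Among nuclear effectors, CTNNB1 (ENSG00000168036; chromosome 3, 41236232 to 41301587, plus strand) was the most abundant member throughout. Its FPKM was 117, 136 and 146 at 0 h, 127, 140 and 158 at 1 h, 133, 141 and 172 at 2 h, and 107, 114 and 127 at 24 h. The libraries overlapped those of 0 h at every time, although at 2 h each library lay above the same-numbered library of 0 h (log2 fold change 0.15, limma adjusted p = 0.22 with the replicate number as a block). At 24 h the log2 fold change was −0.20 (95% interval −0.47 to 0.08, limma adjusted p = 0.21).

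TCF7L2 (ENSG00000148737; chromosome 10, 114710006 to 114927437, plus strand) encodes the main TCF protein of the colon. Its FPKM was 47.9, 49.4 and 51.6 at 0 h, 50.8, 59.1 and 58.6 at 1 h, 42.9, 51.2 and 76.9 at 2 h, and 93.0, 94.5 and 106 at 24 h. All 24 h libraries lay above all others, and in 27.6% of all gene names they lay above those of 0 h. TCF7L2 rose 1.96-fold at 24 h (a log2 change of 0.97 with a standard error of 0.17, limma adjusted p = 0.00037), just under the 2-fold threshold, which it crossed under median-of-ratios scaling. The spread at 2 h came from replicate 3.

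TCF7 (ENSG00000081059; chromosome 5, 133450372 to 133487556, plus strand), which encodes the TCF1 protein, moved in the opposite direction. Its FPKM was 9.80, 9.65 and 11.29 at 0 h, 8.65, 10.01 and 12.36 at 1 h, 9.32, 10.39 and 11.87 at 2 h, and 7.62, 5.55 and 4.53 at 24 h. The libraries of 1 h and 2 h overlapped those of 0 h and all 24 h libraries lay below them, as in 32.8% of all gene names. TCF7 fell to 0.585 of its level at 24 h (a log2 change of −0.77 with a standard error of 0.18, limma adjusted p = 0.003). The call was narrow. Without 0 h replicate 3, 24 h replicate 2 or 24 h replicate 3 the log2 fold changes were −0.70, −0.75 and −0.61, with limma adjusted p of 0.014, 0.012 and 0.013.

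LEF1 (ENSG00000138795; chromosome 4, 108968701 to 109090112, minus strand), encoding a TCF/LEF protein prominent in lymphoid cells, was listed at 0 in 10 of 12 libraries. The other two, 24 h replicates 2 and 3, had 0.0310 and 0.0266 FPKM. In these libraries 1 fragment on a transcript of 1000 bases was worth 0.0342 and 0.0294 FPKM, so that both values were about that of a single fragment.

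RNF43 (ENSG00000108375; chromosome 17, 56431037 to 56494956, minus strand), which like AXIN2 is a known feedback gene of the pathway, passed the test at no time. Its FPKM was 14.2, 19.1 and 19.3 at 0 h, 14.5, 18.8 and 22.7 at 1 h, 12.9, 16.2 and 15.9 at 2 h, and 20.03, 14.9 and 18.3 at 24 h. The libraries overlapped at every time, although each library of 2 h lay below the same-numbered library of 0 h. The log2 fold change was −0.21 at 2 h (95% interval −0.60 to 0.17, limma adjusted p = 0.59, or 0.46 with the replicate number as a block) and 0.02 at 24 h (95% interval −0.37 to 0.41, limma adjusted p = 0.94). The sign at 24 h turned in 6 of 18 alternatives. The Cufflinks locus, which also held SUPT4H1, gave −0.36 at 24 h (limma adjusted p = 0.0088). The difference between the changes of RNF43 and AXIN2 was not tested.

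The crypt stem-cell genes were listed at or near 0. LGR5 (ENSG00000139292; chromosome 12, 71833578 to 71980090, plus strand) reached at most 0.0275 FPKM at 0 h, 0.0104 at 1 h and 0.0514 at 2 h, and was listed at 0 in all 3 libraries at 24 h. ASCL2 (ENSG00000183734; chromosome 11, 2289728 to 2291818, minus strand) was listed at 0 in all 12 libraries. It has 1 transcript of 1852 bases in the table, for which 1 fragment would give 0.0108 to 0.0214 FPKM depending on the library. A 0 in a single library allows a level of up to 3 fragments, or 0.0325 to 0.0643 FPKM, by counting error alone. A listed 0 in this table is not always a low level, since 17 of the gene names tested had a 0 in at least 1 library beside a median above 5 FPKM.

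**Figure D2:**
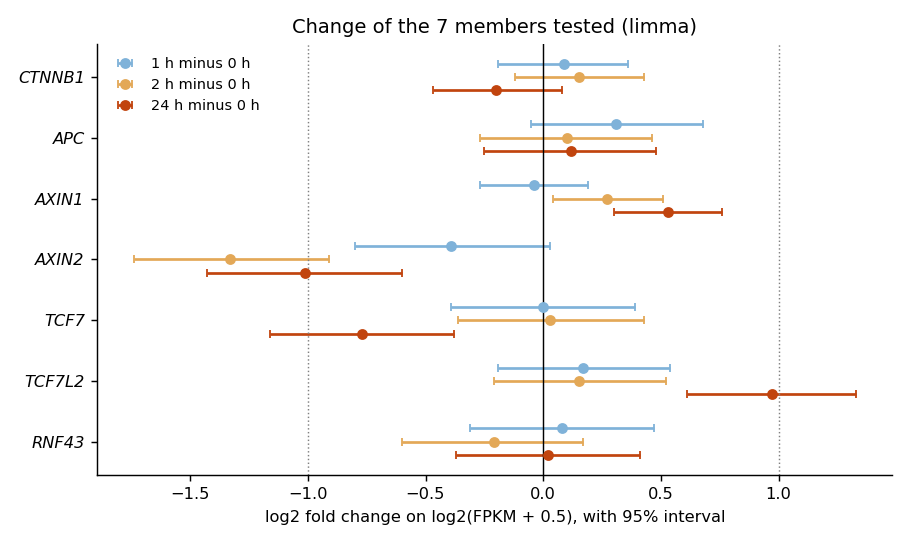
Log2 fold change relative to 0 h (horizontal axis, on log2(FPKM + 0.5)) of the 7 members tested at 1, 2 and 24 h, with points for the limma estimate, lines for its 95% interval and dotted lines at 2-fold. AXIN2 stood at −1.33 at 2 h and −1.01 at 24 h, whereas TCF7L2 stood near 0 at 1 and 2 h and at 0.97 at 24 h.

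Scaling bore on these directions. The deposited values were used as they were, and median-of-ratios scaling moved the log2 fold change of no member at 24 h by more than 0.07, which was enough to carry AXIN2 (−0.96, limma adjusted p = 0.0009) below 2-fold and TCF7L2 (1.03, limma adjusted p = 0.00027) above it. Rescaling to TPM moved the median log2 fold change of all genes at 24 h from −0.05 to −0.67. Under TPM the changes at 24 h were −1.47 for AXIN2, −1.42 for TCF7, −0.27 for AXIN1, 0.10 for TCF7L2 and −1.06 for CTNNB1 (limma adjusted p = 0.052), so that AXIN1 turned direction and TCF7L2 no longer passed (limma adjusted p = 0.87). Relative to the median of all genes under TPM they were −0.80, −0.74, 0.41, 0.78 and −0.38 in the same order. With TPM taken over transcripts of at least 300 bases, the median of all genes at 24 h was −0.12. The changes were then −1.14 for AXIN2, −0.88 for TCF7, 0.45 for AXIN1, 0.88 for TCF7L2 and −0.29 for CTNNB1.

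By Pearson's r of log2 levels over the 12 libraries, the genes most like AXIN2 among 14359 were KLF2 (r = 0.927), NARFL (r = 0.920) and MFAP1 (r = 0.919). This is a description over libraries that share the 4 time points.

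Isoform usage at 24 h was compared as the log2 ratio of a transcript to the other transcripts of its gene, in limma with Benjamini-Hochberg adjustment over 57084 transcripts. Of the 49 transcripts of members tested, 6 passed an adjusted p of 0.05, in CTNNB1, AXIN1 and TCF7L2, against 11.2% of all transcripts. Cufflinks divides the reads that isoforms share, so that the values of a gene's isoforms depend on each other.

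In CTNNB1 the 3 leading isoforms encode the same protein, and the share of 1 of them, ENST00000396185, rose at 24 h. The transcripts ENST00000396183, ENST00000396185 and ENST00000349496 share the start codon, the stop codon (ending at 41280833) and 781 codons, and differ outside the coding part. In GENCODE release 44 they begin at 41240925, 41240880 and 41240996, and behind the stop codon ENST00000349496 keeps the last intron, while the others splice it from a shared donor to 2 acceptors 159 bases apart. The table's models of ENST00000396185 and ENST00000349496 are 3356 and 3729 bases long against 3472 and 3661 in GENCODE, so the ends of the transcripts measured may differ from these. The sites are shown because they tell these isoforms apart. The use of one acceptor was not tested against that of the other. They are from GRCh37, plus strand, with the intron's first or last 2 bases in capitals.
Shared donor, chr3:41280840-41280865: ctttagGTaagaagttttaaaaagcc
Acceptor of ENST00000396185, chr3:41281131-41281156: gcctttctctctttatacAGctgtat
Acceptor of ENST00000396183, chr3:41281290-41281315: tctggtcctttttggtcgAGgagtaa

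ENST00000396185, with the upstream acceptor, had FPKM of 26.7, 31.9 and 38.1 at 0 h and 43.0, 45.7 and 48.5 at 24 h, with no overlap. Its share of CTNNB1 rose from 24.2% ± 1.81 to 39.8% ± 1.09 (SD, n = 3 each; log2 usage change 1.04, standard error 0.16, limma adjusted p = 0.0029). ENST00000396183, with the downstream acceptor, had 57.1, 55.8 and 64.7 FPKM at 0 h and 36.1, 39.6 and 49.5 at 24 h, also with no overlap. Of all gene names, 27.6% lay wholly above 0 h at 24 h and 32.8% wholly below, and the share over transcripts was not taken. The share of ENST00000396183 was 44.8% ± 3.81 at 0 h and 36.1% ± 2.89 at 24 h (limma adjusted p = 0.062). The intron-keeping ENST00000349496 had a share of 25.7% ± 3.23 at 0 h and 19.0% ± 4.38 at 24 h (limma adjusted p = 0.16). By limma's diffSplice, which pools the variance of a gene's transcripts, the call on ENST00000396185 was lost (adjusted p = 0.7).

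In AXIN1 the leading isoform lacks an exon of the reference form. ENST00000354866 encodes 826 codons and ENST00000262320 encodes 862, and they differ by a wholly coding exon of 108 bases on chromosome 16 (341190 to 341297, minus strand), whose first 30 bases, from GRCh37, identify it.
Start of the AXIN1 exon, chr16:341268-341297: gtatgtgcaggaggttatgcggcggggacg

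ENST00000354866 had FPKM of 5.46, 5.52 and 5.51 at 0 h and 5.04, 6.68 and 4.91 at 24 h, so its own level overlapped between the times. The full form had 0.490, 1.19 and 0.616 FPKM at 0 h and 2.32, 1.24 and 2.70 at 24 h. The share of ENST00000354866 fell from 70.5% ± 0.805 to 48.5% ± 7.36 (SD, n = 3 each; log2 usage change −1.17, standard error 0.25, limma adjusted p = 0.013). That of ENST00000262320 was 9.77% ± 4.62 at 0 h and 18.5% ± 7.62 at 24 h (limma adjusted p = 0.42), and the remainder lay in assembled isoforms nearest to it. The call on ENST00000354866 was lost by diffSplice (adjusted p = 0.48) and with FPKM above 1 in at least 3 libraries as the filter (limma adjusted p = 0.15).

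**Figure D3:**
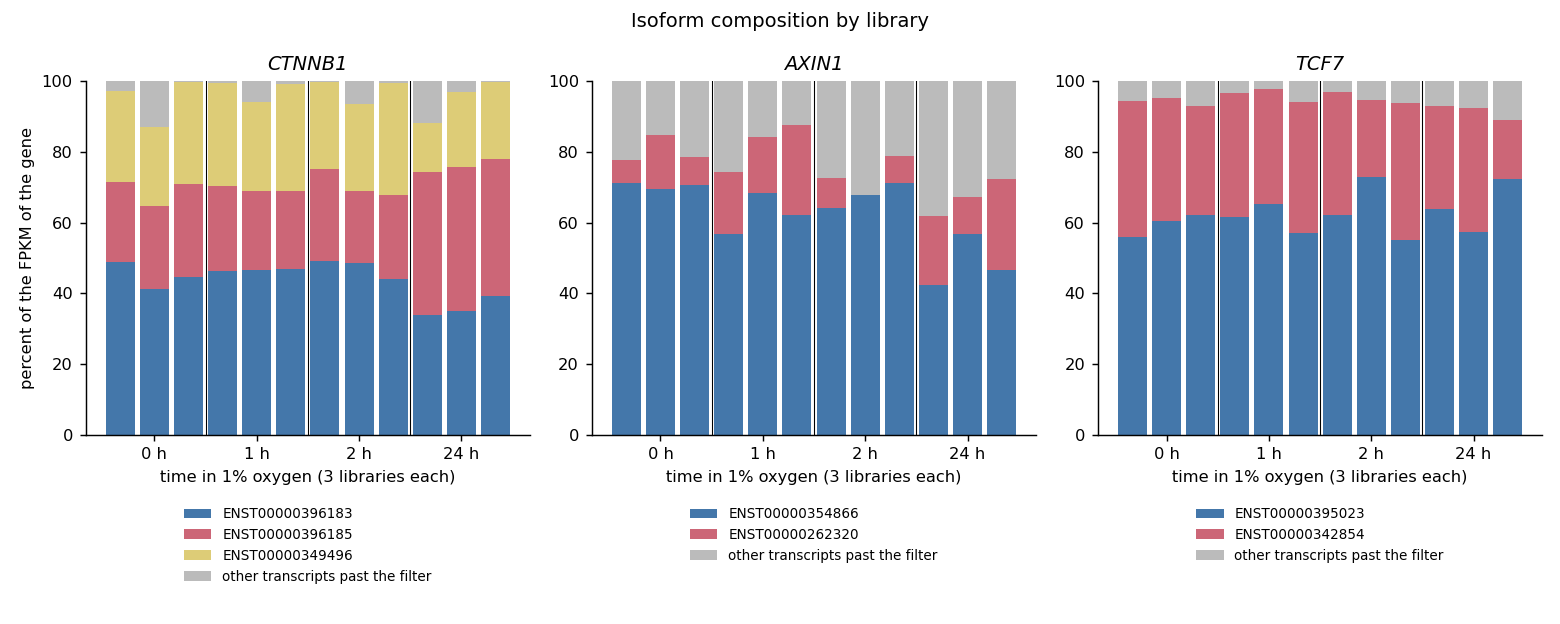
Percent of the FPKM of CTNNB1, AXIN1 and TCF7 (vertical axis) held by their leading transcripts in each of 12 libraries, 3 per time in 1% oxygen, as stacked bars that sum to 100 over the transcripts past the filter. In CTNNB1 the red band (ENST00000396185) widened to 39.8% at 24 h, in AXIN1 the blue band (ENST00000354866) narrowed to 48.5%, and in TCF7 the blue band (ENST00000395023) led at every time.

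TCF/LEF proteins bind beta-catenin through their N-terminus. Transcripts whose coding starts further downstream lack that region and are known to give forms that occupy targets without activating them. In TCF7 the leading transcript at every time, ENST00000395023, starts at an internal codon (chromosome 5, 133451629) and has 269 codons, against 384 codons from the first start codon (133450598) in ENST00000342854, whose model in the table has 3045 bases against 3288 in GENCODE. The first 30 coding bases of both, from GRCh37 on the plus strand with the start codon in capitals, show where they part.
TCF7 ENST00000342854, chr5:133450598-133450627: ATGccgcagctggactccggcgggggcggc
TCF7 ENST00000395023, chr5:133451629-133451658: ATGtacaaagagaccgtctactccgccttc

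ENST00000395023 held 59.4% ± 3.24 of TCF7 at 0 h and 64.5% ± 7.56 at 24 h (exact permutation test, two-sided, p = 0.4). ENST00000342854 held 34.7% ± 3.89 and 26.9% ± 9.36 (exact permutation test, p = 0.3). With 3 libraries against 3 the smallest p is 0.1. In FPKM the long form had 3.41, 2.93 and 3.21 at 0 h and 2.11, 1.65 and 0.709 at 24 h, and the short form 4.94, 5.10 and 6.47 at 0 h and 4.62, 2.71 and 3.09 at 24 h. Both lay lower at 24 h in all 3 libraries than at 0 h, as did TCF7 as a whole and 32.8% of all gene names.

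TCF7L2 was spread over 20 transcripts past the filter. They were grouped by the start codon that GENCODE release 44 gives to their nearest reference transcript. The first start codon (chromosome 10, 114710516) belonged to 8 transcripts, such as ENST00000355717 with 489 codons. An internal start belonged to ENST00000369389 (299 codons) and ENST00000349937 (282 codons), whose first 30 coding bases are the same although their start codons lie in different exons, because both cross an intron into a shared exon. In both classes some of the table's models differ in length from GENCODE. ENST00000369389 and ENST00000349937 have 738 and 1174 bases, shorter than in GENCODE, and in the first class ENST00000277945 has 620 against 2587 and ENST00000355717 has 4021 against 1979. The starts of both classes thus rest on the later annotation. The starts below are from GRCh37, plus strand, with the start codon in capitals.
TCF7L2 ENST00000355717, chr10:114710516-114710545: ATGccgcagctgaacggcggtggaggggat
TCF7L2 ENST00000369389, spliced from a start codon at 114886638: ATGtctaacaaagtgccagtggtgcagcac

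Transcripts with the first start codon summed to 14.5, 20.1 and 20.8 FPKM at 0 h and 25.9, 24.4 and 31.1 at 24 h. Those with an internal start summed to 11.3, 7.38 and 9.03 FPKM at 0 h and 31.7, 24.7 and 24.2 at 24 h. Neither class overlapped between the times. All 3 libraries of 24 h lay above those of 0 h in 27.6% of all gene names, TCF7L2 among them, and the share over transcript classes was not taken. The first class held 38.1% ± 5.74 of TCF7L2 at 0 h and 28.2% ± 1.46 at 24 h (exact permutation test, two-sided, p = 0.1, the smallest it can give), and the internal class 19.2% ± 4.69 and 28.2% ± 5.85 (exact permutation test, p = 0.2). Transcripts that release 44 does not type held 23.6% at 0 h and 25.7% at 24 h, and assembled isoforms held 17.6% and 17.4%, and either could belong to both classes.

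**Figure D4:**
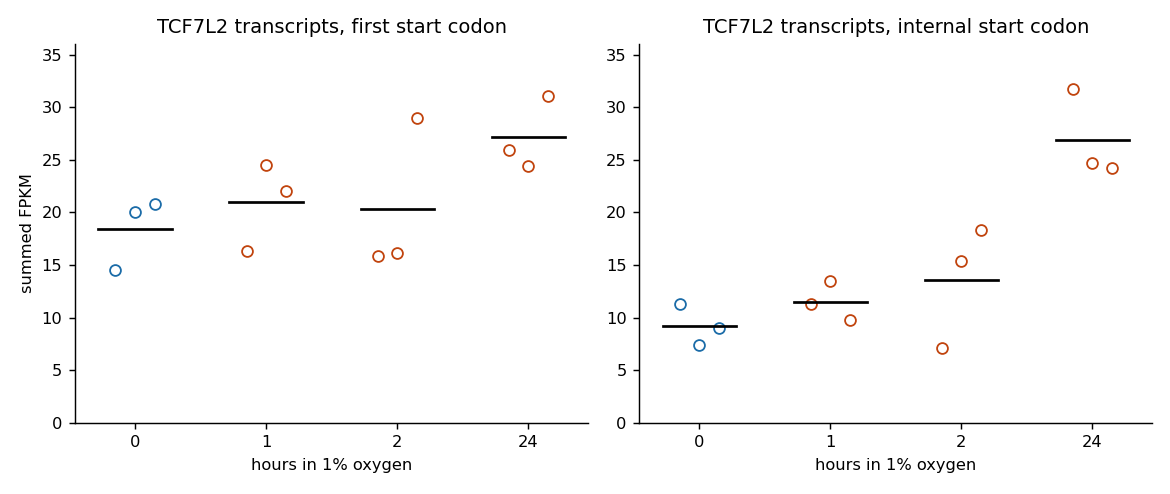
Summed FPKM (vertical axes, from 0) of the TCF7L2 transcripts with the first start codon (left, 8 transcripts) and with an internal start codon (right, 2 transcripts) against hours in 1% oxygen, with 1 circle per library, 3 per time, and a bar at the mean. The means were 18.4 and 27.1 at 0 and 24 h on the left and 9.22 and 26.9 on the right.

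In usage, 4 minor TCF7L2 transcripts changed at 24 h, all downwards. ENST00000538897 went from 8.50% ± 0.982 to 3.30% ± 1.14 (SD, n = 3 each; limma adjusted p = 0.011). ENST00000534894 went from 2.40% ± 1.38 to 0 in all 3 libraries (limma adjusted p = 0.0054), ENST00000536810 from 1.52% to 0.00148% (limma adjusted p = 0.015) and ENST00000476887 from 1.39% to 0.0685% (limma adjusted p = 0.0082). The call on ENST00000536810 was lost without 0 h replicate 1 (limma adjusted p = 0.06), and by diffSplice those on ENST00000538897 (adjusted p = 0.51) and ENST00000476887 (adjusted p = 0.11) were lost. No transcript of APC, AXIN2, TCF7 or RNF43 passed.

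Because splicing and isoforms without a protein product are a subject of the series, the share of noncoding transcripts was taken for each member. APC, TCF7L2 and RNF43 had any past the filter. In APC it went from 28.1% ± 4.19 to 34.5% ± 8.41 (SD, n = 3 each; p = 0.3 in a two-sided exact permutation test), all in ENST00000505350, typed as a target of nonsense-mediated decay. The table's model of this transcript is 573 bases long against 10920 in GENCODE release 44, so the type may not belong to the fragment measured. In RNF43 it was 13.6% ± 8.72 and 17.8% ± 3.86 (exact permutation test, p = 0.6), all in ENST00000580014, a model of 497 bases. This transcript is typed as one whose coding sequence is not defined. It was counted as noncoding because every type other than protein-coding was, so the RNF43 share at any time may not be noncoding. In TCF7L2 the share was 1.52% ± 1.22 and 0.509% ± 0.145 (exact permutation test, p = 0.1). The smallest p is again 0.1. Leaving out 1 library in turn, the difference at 24 h ran from 3.45 to 11.16 percentage points in APC, from −1.39 to −0.31 in TCF7L2 and from −0.65 to 7.82 in RNF43, where it turned direction without 0 h replicate 1. At 2 h, which was not tested, the noncoding share of RNF43 was 25.0%, 25.6% and 24.6%, above all libraries of 0 h (3.90% to 20.8%), as in 6.02% of 5982 gene names with coding and noncoding transcripts. That of APC at 2 h was 22.3%, 1.67% and 23.4%, below all libraries of 0 h (23.6% to 31.8%), as in 9.48% of these gene names, with the nearest values 23.4% and 23.6%.

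The remainder of the pathway was read from lists of 106 further genes, of which 72 passed the filter. At 1 and 2 h none of the 72 passed the test. At 24 h 15 (20.8%) were differentially expressed, all higher, against 18.3% of all gene names, 8.76% of them higher. In all 30 (41.7%) rose, against 18.3% of all gene names, 3 (4.17%) fell (WNT10B, GSK3A and CCND1), against 23.2%, and 39 did not pass, with a median log2 fold change of 0.41 against −0.05 over all genes. Under median-of-ratios scaling 33 rose and 3 fell. Under TPM 3 rose and 3 fell and the median was −0.29, which was still 0.38 above that of all genes, against 0.46 for the deposited values. WNT4, WNT6, WNT7A, WNT11 and FRZB were above 0.5 FPKM in fewer than 3 libraries of the other times and passed the filter through those of 24 h, so a rise in them was in part fixed by the filter. Without these 5, 12 of 67 were differentially expressed, 27 rose and 3 fell.

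Among ligands and secretion factors, 13 of 21 were tested, 7 rose (53.8%, against 18.3% of all gene names) and 1 fell (7.69%, against 23.2%). Without the 4 ligands that the 24 h libraries let in, 5 of 9 rose and 1 fell. The shares over all gene names are the same beside each list that follows. WNT16 was the most abundant of those named and rose from 41.1 ± 3.94 to 140 ± 9.38 FPKM (SD, n = 3 each; log2 fold change 1.76). WNT6, let in by its 24 h libraries, rose from 0.288 ± 0.0867 to 3.70 ± 0.628 FPKM (log2 fold change 2.41), with smaller log2 changes of 1.39 for WNT7A, let in likewise, and 1.13 for WNT7B. WNT10B fell from 5.62 ± 0.473 to 2.68 ± 0.551 FPKM (log2 fold change −0.96). The limma adjusted p of WNT16, WNT7B and WNT10B was 0.004 or lower.

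Of 12 receptors tested, 3 (25%) rose and none fell. FZD7, a Frizzled receptor, rose from 2.40 ± 0.384 to 8.54 ± 0.681 FPKM (log2 fold change 1.64, limma adjusted p = 9.8e-06), and FZD2 rose with a log2 fold change of 1.13 (limma adjusted p = 0.00088). Of 5 antagonists tested, 4 (80%) rose and none fell, or 3 of 4 without FRZB, which its 24 h libraries let in. NOTUM, an enzyme that removes the lipid by which Wnt proteins bind their receptors, rose from 2.24 ± 0.689 to 12.2 ± 5.20 FPKM (log2 fold change 2.17, limma adjusted p = 0.00023). NOTUM is also a known target of the pathway, as is AXIN2, which fell at 24 h. The difference between the changes of NOTUM and AXIN2 was not tested. KREMEN1, a receptor for the DKK antagonists, and FRZB, a secreted Wnt-binding protein, rose with log2 changes of 1.29 and 1.06. In the R-spondin axis 2 of 7 genes were tested and 1 rose, with no differential expression.

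Of 16 cytoplasmic regulators tested, 5 (31.2%) rose and 1 (6.25%) fell, none past 2-fold. The fall was that of GSK3A, a kinase that phosphorylates beta-catenin, with a log2 fold change of −0.39 (limma adjusted p = 0.0017). GSK3B, which encodes its sister kinase, rose from 18.9 ± 1.27 to 32.4 ± 3.997 FPKM (SD, n = 3 each; log2 fold change 0.75, limma adjusted p = 0.00012). Of 13 nuclear partners tested, 5 (38.5%) rose and none fell. TCF7L1, the TCF gene known mainly as a repressor, rose from 3.23 ± 0.466 to 11.7 ± 1.34 FPKM (log2 fold change 1.71, limma adjusted p = 7.7e-06). The Groucho-type corepressor TLE2 rose from 6.60 ± 0.697 to 26.1 ± 4.84 FPKM (log2 fold change 1.89, limma adjusted p = 9.6e-06) and TLE3 rose with a log2 fold change of 1.05.

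Of 11 known target genes tested, 5 (45.5%) rose and 1 (9.09%) fell. The crypt receptor genes EPHB3 and EPHB2 rose with log2 fold changes of 1.46 and 1.20, and SOX9, a transcription factor of crypt progenitors, with 1.05. CCND1, encoding cyclin D1, fell from 283 ± 40.5 to 149 ± 43.1 FPKM (log2 fold change −0.95, limma adjusted p = 0.005). MYC had 162 ± 19.8 FPKM at 0 h and 146 ± 28.6 at 24 h (log2 fold change −0.16, limma adjusted p = 0.4).

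**Figure D5:**
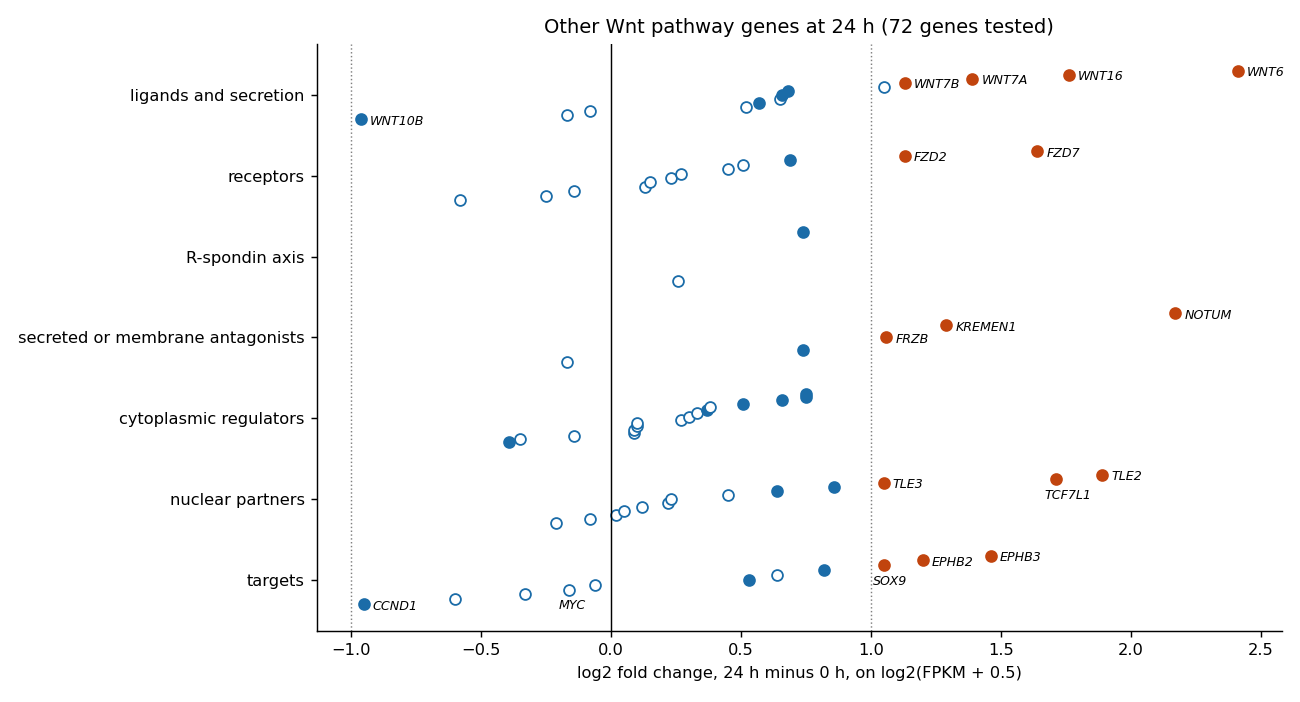
Log2 fold change at 24 h relative to 0 h (horizontal axis, on log2(FPKM + 0.5)) of 72 other pathway genes, 1 circle per gene, in rows by role. Orange circles are differentially expressed, filled blue circles passed the adjusted p alone and open circles did not pass. All 15 orange circles lie to the right, from 1.05 to 2.41. Under TPM 2 genes were differentially expressed higher and 2 lower, and under TPM over transcripts of at least 300 bases 11 higher and 1 lower.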

How the data were processed

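RNA was sequenced in 12 libraries of HCT116 cells, 3 at each of 4 times. The authors aligned strand-specific paired reads to hg19, assembled transcripts with Cufflinks, merged them with Ensembl models and deposited FPKM per transcript. The labels also name CASAVA 1.8.2. No normalisation between libraries is stated, and the values were not rescaled (median-of-ratios size factors 0.950 to 1.028).

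Of 293768 transcripts, those with a gene name and class code = (all reference splice sites) or j (some shared) were summed by gene name. Tests used limma 3.58.1 in R 4.3.3 (lmFit, eBayes with trend) with tables read by the R package data.table (1.17.8). Usage was tested on transcripts above 0.5 FPKM in at least 3 libraries. Transcript types, starts and exons came from GENCODE release 44 lifted to GRCh37, by transcript identifier. Sums and permutation tests were made in Python 3.11.15 (pandas 2.3.3, scipy 1.17.1, numpy 2.4.6), and figures with matplotlib 3.10.9.

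On simulated data for 24 h against 0 h, the gene fit recovered 84% of 200 genes changed by 1.5 (log2) among 16680, with 0 false calls. The usage fit recovered 67.3% of 199 transcripts changed by 2 (log2) among 57084. It gave 17 false calls outside the genes of the changed transcripts, and calls on other transcripts of those genes were not counted. The simulated transcripts varied independently, whereas the measured isoforms of a gene depend on each other.

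All members were named, and from the lists each differentially expressed gene, at most 5 per list, plus MYC, CCND1, the 3 genes that fell and the marker genes. GSK3A, GSK3B and WNT10B were added after their values were seen. The members and lists were chosen with earlier results of these data known. Same-numbered libraries of 0 h and 2 h deviated together in all 3 pairs (r = 0.246, 0.129 and 0.362 across gene names). The main tests were nevertheless fitted without the replicate number at every time, and values with it as a block are named as such. With the block, the limma adjusted p at 2 h was 0.16 for AXIN1 and 0.011 for AXIN2. The replicate p-values measure the spread between the submitted libraries. A leukocyte marker of the list is not reported here.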

Additional observations from a re-analysis of the deposited data

How the results depend on the processing

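Of the members at 24 h, 4 passed the adjusted p alone, against 1 differentially expressed. None was differentially expressed with a pseudocount of 1, with transcripts filtered before summing or with class code = only, 2 were under TPM (both lower), 1 was under median-of-ratios scaling, but TCF7L2, higher (1.03), in place of AXIN2 (−0.96), and leaving out 1 library gave 0 to 2. AXIN2 at 24 h was −0.91 (limma adjusted p = 0.019) with transcripts filtered first, −0.81 (limma adjusted p = 0.034) with class = only and 0.22 for the Cufflinks locus. TPM reversed AXIN1 at 24 h (−0.27) and at 2 h (−0.69), APC (−0.58) and RNF43 (−0.79). RNF43 also reversed under TPM over transcripts of at least 300 bases (−0.07), as a locus (−0.36), and in 3 of the 6 fits without 1 library (−0.12 to 0.14 over the 6; reversed without 0 h replicate 1, 24 h replicate 1 or 24 h replicate 3). APC reversed as a locus (−1.36) and without 24 h replicate 1 (−0.00; leaving out 1 library gave up to 0.34). None of these RNF43 values passed 0.01 except that of the locus (limma adjusted p = 0.0088). At 2 h AXIN2 under TPM was −1.80 (limma adjusted p = 9.1e-05), so that 1 member was called, and over all alternatives it ran from there to −0.71 for the locus (limma adjusted p = 0.22). TCF7 at 24 h stood at a limma adjusted p of 0.01 with only the 6 libraries of the contrast.

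Over all gene names the count at 24 h was 6927 by adjusted p alone, against 3048, and 2686 to 3236 leaving out 1 library. At 2 h it was 3, but 6 with a pseudocount of 0.1, 5 with transcripts filtered first, 7 with transcripts of at least 300 bases, 390 under TPM, and 0 without the filter, under TPM over transcripts of at least 300 bases or with only 6 libraries, and 0 to 6 leaving out 1 library. At 1 h it was 1, but 31 under TPM and 0 without the filter, under TPM over at least 300 bases, with transcripts of at least 300 bases, with only 6 libraries or with the replicate block, and 0 to 1 leaving out 1 library. Changed usage was called for 6370 transcripts, and for 3502 to 5287 leaving out 1 library. ENST00000476887 of TCF7L2 did not pass the stricter FPKM filter and has no value there. The cause of these shifts was not tested beyond the construction of each alternative.

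Libraries that share a replicate number did not deviate together in every pair of times. The correlation of their deviations averaged 0.154 over 18 pairs, from −0.0833 to 0.428, with 10 above 0.1. All 3 were above 0.1 between 0 h and 2 h but not between 0 h and 1 h or 24 h. With the replicate block 4 gene names were differentially expressed at 2 h, where AXIN2 stood at a limma adjusted p of 0.011. At 24 h it gave 3106, of which 3040 were among the 3048 without it, and 6114 transcripts with changed usage. CTNNB1 was lower at 24 h than at 0 h in all 3 numbers, with a limma adjusted p of 0.028 under the block, which missed 0.01. The block changed no call on a member.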
